A study of Mus musculus with 10 samples.

Results

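The genes of the semaphorin, ephrin and Slit guidance systems were followed across 5 preparations of mouse bone marrow mesenchymal stromal cells, named MSC I to MSC V. Members were all genes whose symbol on the array named a semaphorin (Sema), plexin A to D (Plxn), ephrin (Efn), Eph receptor, Slit, Robo or neuropilin (Nrp), and they numbered 59 of 19938 named genes. Every preparation came from the marrow of female C57BL/6J mice aged 6 to 8 weeks and was studied at passage 16 to 17, in MesenCult medium with 20% mesenchymal supplement. The labels name no treatment, no altered gene and no control group. Each was measured on 2 arrays, 10 in all, and the values were log2 expression levels. The labels do not say whether the 2 arrays of a preparation came from separate cultures, so the p-values cover only variation from array to array, possibly technical.

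Guidance molecules are ligands and receptors that attract or repel growing axons and migrating cells. Semaphorins signal through plexins, and the secreted class 3 semaphorins mostly need a neuropilin as well. Ephrins are membrane-bound ligands of the Eph receptor tyrosine kinases, so that signals pass between touching cells, and Slits are secreted ligands of Robo receptors. In bone, Sema3a and Sema4d are known regulators of bone formation and resorption, and ephrin-B2 takes part in the contact between osteoclasts and osteoblasts.

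The array medians lay between 6.45 and 6.63 log2, and arrays of the same preparation correlated at r = 0.971 to 0.982 across tested genes, against 0.760 to 0.955 between preparations. Genes entered the tests if they exceeded the table median (6.55 log2) on 2 or more arrays. The label of stromal cells was checked against markers: 11 of 11 measured stromal markers passed that level on at least 2 arrays and 6 on all 10, with Col1a1, Col1a2 and Sparc above 10 log2 throughout. Others did not hold in every preparation: Thy1 exceeded that level on 3 arrays, Lepr on 5, and Eng on the 2 arrays of MSC IV alone (mean 9.60 log2, against 5.58 to 5.78 elsewhere). None of 10 endothelial markers exceeded it on any array, and none of 8 Schwann and neural markers on 2 or more. Of the latter, Nefl (up to 7.82 log2, mean 6.66 in MSC II) and Mbp (up to 6.62) exceeded it on 1 array each. Of 10 blood and macrophage markers 2 exceeded it on at least 2 arrays, Cd68 and Cd14. The leukocyte marker Ptprc and the macrophage marker Adgre1 stayed below 5.3 log2 on every array. The deposited values carried no detection calls, so low levels do not show absence, and differences at low levels are compressed. Fewer cells with a transcript and less of it per cell cannot be told apart in such bulk samples.

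Guidance genes differed widely among the preparations. Of the 59 members 39 were tested, and 26 of them (66.7%) differed by at least 1 log2 between their highest and lowest preparation mean (limma's moderated F test, Benjamini-Hochberg adjusted p under 0.05). Among all 10971 tested genes 29.1% were called by the same rule. The median range of preparation means was 2.19 log2 over the 39 members and 0.75 over all tested genes. The range exceeded 4 log2 for 6 called members, Sema3d, Robo1, Epha3, Nrp1, Sema6d and Epha7, and 2 log2 for 19. By role, the called members were 5 of 6 tested secreted semaphorins, 5 of 8 membrane semaphorins, both neuropilins, 5 of 7 plexins, 2 of 6 ephrins, 5 of 7 Eph receptors, 1 of 2 Slits and the 1 tested Robo. MSC I held the highest mean of 9 called members and MSC IV the lowest mean of 12. Plxnc1, Sema3d, Sema4d and Sema4f passed the low-value filter only through the preparation where they were highest. This favoured a difference in them but did not force a call. Without them 22 of 35 members were called. Genes of this kind were not removed from the 29.1% of all tested genes, so these shares are not like for like. The calls of 18 members held under every alternative in which they were tested, and the other 8 calls were lost in at least 1, as stated beside each gene. The 2 arrays of the highest preparation lay above all 8 other arrays for 18 of 39 members (46.2%), near the 43.4% of all tested genes, and those of the lowest preparation lay below the other 8 for 16 (41.0%, against 43.2%).

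**Figure D1:**
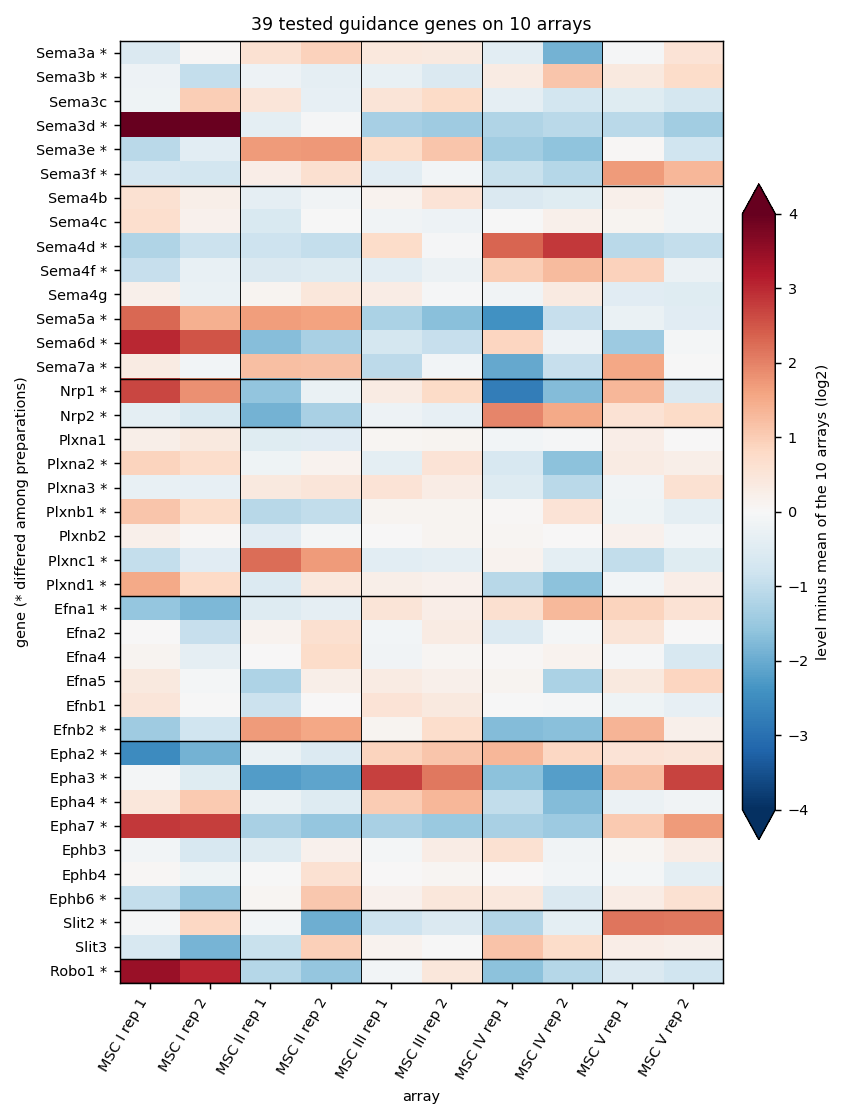
Level of each of the 39 tested guidance genes on each of the 10 arrays, as the log2 difference from the gene's mean over all arrays (red above, blue below); horizontal lines separate gene classes, and an asterisk marks the 26 genes that differed among preparations. Sema3d, Sema6d, Epha7 and Robo1 are red on both MSC I arrays, and Sema4d on both MSC IV arrays.

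The upstream sequences of 4 called members are shown to place them in the genome: Sema3d and Robo1, which had the widest ranges, and both neuropilins. The windows are the 250 bases before the RefSeq start, on the plus strand of GRCm38.p6, at chr5:12382916-12383165 for Sema3d, chr16:72662899-72663148 for Robo1, chr8:128358823-128359072 for Nrp1 and chr1:62703067-62703316 for Nrp2. Capitals mark every CG dinucleotide.
Sema3d: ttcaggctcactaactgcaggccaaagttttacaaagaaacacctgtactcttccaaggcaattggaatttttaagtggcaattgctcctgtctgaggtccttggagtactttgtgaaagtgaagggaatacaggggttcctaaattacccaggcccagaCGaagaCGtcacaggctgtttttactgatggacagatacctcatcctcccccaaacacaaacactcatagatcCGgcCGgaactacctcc
Robo1: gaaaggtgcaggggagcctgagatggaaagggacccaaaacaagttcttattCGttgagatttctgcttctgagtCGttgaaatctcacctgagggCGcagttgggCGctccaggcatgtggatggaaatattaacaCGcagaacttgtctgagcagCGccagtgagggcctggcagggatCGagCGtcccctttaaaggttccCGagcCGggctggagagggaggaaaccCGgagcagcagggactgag
Nrp1: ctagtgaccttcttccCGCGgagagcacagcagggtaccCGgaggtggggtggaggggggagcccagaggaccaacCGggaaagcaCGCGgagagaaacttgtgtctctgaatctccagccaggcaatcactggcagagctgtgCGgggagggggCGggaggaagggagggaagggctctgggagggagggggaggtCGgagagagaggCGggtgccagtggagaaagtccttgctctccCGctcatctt
Nrp2: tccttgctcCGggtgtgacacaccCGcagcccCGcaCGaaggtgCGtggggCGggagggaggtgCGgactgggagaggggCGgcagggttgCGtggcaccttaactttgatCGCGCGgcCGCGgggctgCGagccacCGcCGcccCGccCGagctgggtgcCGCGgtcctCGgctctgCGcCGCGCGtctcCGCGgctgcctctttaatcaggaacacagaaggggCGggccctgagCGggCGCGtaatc
The window of Nrp2 held 32 CG dinucleotides, and 96.0% of all 32851 RefSeq windows of this length held as few or fewer. Sema3d held 4 (44.4% of windows held as few or fewer) and Robo1 and Nrp1 held 11 each (66.5%), against a median of 6 over all windows. Whether these counts follow the preparation was not tested. Other members that were highest in MSC I held up to 30 (Plxnb1). Of called members highest in MSC IV besides Nrp2, Sema4d and Sema4f held at most 4, Epha2 held 9, and the windows of Efna1 held 18 and 16. Those highest in MSC IV but not called or not tested ranged from 2 (Robo4) to 46 (Epha8). Called members as a group ranged from 1 to 32 in their 29 windows, with a median of 16. Windows of members not called or not tested held from 0 (Sema6c) to 46 (Epha8), and these sets were not compared. The motif GGGCGG, searched on both strands with overlapping matches counted, occurred 5 times in the Nrp2 window and once in that of Nrp1, and neither in that of Sema3d nor in that of Robo1. It was present in 32.7% of all windows and in 49 of the 68 windows of the 52 members that had a RefSeq entry. It contains a CG and therefore overlaps some of the marked letters.

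Among the secreted class 3 semaphorins, Sema3d stood out with the widest range of all members. Its level was 10.81 and 10.72 log2 on the MSC I arrays, 6.40 and 6.73 in MSC II, 5.45 and 5.36 in MSC III, 5.57 and 5.72 in MSC IV, and 5.69 and 5.40 in MSC V. MSC I was thus far above all other arrays, where Sema3d lay near or under the table median. The difference from the mean of the other four was 4.98 ± 0.12 log2 (SE, adjusted p = 2.75e-07). No fold is given, because the lower levels were not shown to be above background.

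Sema3e, a ligand that can bind plexin D1 without a neuropilin, had another pattern. Its arrays read 6.22 and 6.88 log2 in MSC I, 9.03 and 9.03 in MSC II, 8.03 and 8.43 in MSC III, 5.91 and 5.69 in MSC IV, and 7.37 and 6.52 in MSC V. It was highest in MSC II (2.15 ± 0.25 above the mean of the others, adjusted p = 0.00189) and lowest in MSC IV (fell by 1.89 ± 0.25 on the log2 scale, adjusted p = 0.00156), and neither pair of arrays overlapped the other preparations. MSC III was also above the mean of the others (1.15, adjusted p = 0.0423), but not without the low-value filter (adjusted p = 0.068), nor without any 1 array of MSC I replicate 1 (0.0665), MSC II (0.0736 and 0.0727), MSC III (0.167 and 0.285) or MSC IV (0.0663 and 0.0847).

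Sema3f, a neuropilin-2 ligand, was highest in MSC V, with 10.15 and 9.77 log2, against 7.79 and 7.71 in MSC I, 8.72 and 9.10 in MSC II, 8.01 and 8.34 in MSC III, and 7.57 and 7.31 in MSC IV. MSC V lay 1.89 ± 0.16 above the mean of the others (adjusted p = 0.000819) and MSC IV 1.26 ± 0.16 below (difference -1.26, adjusted p = 0.00128).

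Sema3a, an osteoprotective semaphorin that signals through neuropilin-1, was far above the table median in every preparation, with arrays between 9.58 (MSC IV) and 12.41 log2 (MSC II). Its range of 1.94 log2 passed the test narrowly (adjusted p = 0.0421), and the call was lost without any 1 array other than MSC IV replicate 1 (adjusted p = 0.051 to 0.0909) and when low genes were kept in (adjusted p = 0.0818). MSC IV was below the others (-1.46 ± 0.36, adjusted p = 0.0185), but by less without MSC IV replicate 2 (-0.73, adjusted p = 0.157). Sema3b had its highest means in MSC IV (7.85) and MSC V (7.69) and its lowest in MSC I (6.53), a range of 1.32 (adjusted p = 0.0252) that was lost without MSC III replicate 2 (adjusted p = 0.0523) or MSC V replicate 2 (adjusted p = 0.0506). Sema3c was not called (range 1.23, adjusted p = 0.0766); without MSC I replicate 1 or 2 it was (adjusted p = 0.027 and 0.0467). Sema3g stayed between 5.17 and 5.50 log2 and was not tested.

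Sema3a and Sema3d are neighbours on mouse chromosome 5 with no other protein-coding gene between them (GRCm38.p6), and Sema3e and Sema3c lie nearby. Sema3d had its highest mean in MSC I, and Sema3a and Sema3e had theirs in MSC II, though Sema3a did not differ between MSC II and MSC III beyond the threshold (0.35 ± 0.45, adjusted p = 0.677).

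Of the membrane semaphorins, Sema4d marked MSC IV and Sema6d marked MSC I. Sema4d, a plexin-B1 ligand known to restrain osteoblasts, read 8.57 and 9.08 log2 in MSC IV, 6.99 and 6.18 in MSC III, 5.04 and 5.37 in MSC I, 5.42 and 5.30 in MSC II, and 5.18 and 5.28 in MSC V. MSC IV lay above every other array, with MSC III next. The difference of MSC IV from the others was 3.23 ± 0.22 (adjusted p = 0.000107). The second probe set of the gene disagreed in size, with arrays between 5.62 and 6.23 log2 and a range of means of 0.43, and the mean of both probe sets gave a difference of 1.80 (adjusted p = 0.000269). With that mean, the lower calls of MSC I, MSC II and MSC V (-1.29, -1.10 and -1.26) shrank under the minimum, to -0.64, -0.64 and -0.66. The call of MSC II also ended on removal of MSC II replicate 1 (adjusted p = 0.0676) or 2 (0.11) or MSC III replicate 1 (-0.998, under the minimum), and that of MSC V on removal of MSC V replicate 1 (0.105) or 2 (0.0731).

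Sema6d, a plexin-A ligand, read 10.10 and 9.59 log2 in MSC I, 5.39 and 5.78 in MSC II, 6.38 and 6.16 in MSC III, 7.94 and 6.90 in MSC IV, and 5.62 and 7.00 in MSC V. Only the MSC I arrays were above 9, and the arrays of MSC V differed from each other by more than the means of MSC III and MSC V did. The difference of MSC I from the others was 3.45 ± 0.38 (adjusted p = 0.000468), and MSC II was lower (-1.87, adjusted p = 0.0151), though not if its replicate 1 (adjusted p = 0.1) or its replicate 2 (adjusted p = 0.0794) was left out.

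Sema5a, an integral membrane semaphorin with thrombospondin repeats, separated MSC I and MSC II from the rest. Its levels were 11.90 and 11.03 log2 in MSC I, 11.30 and 11.23 in MSC II, 8.35 and 7.96 in MSC III, 7.18 and 8.69 in MSC IV, and 9.34 and 9.18 in MSC V. MSC I was above the mean of the others by 2.31 ± 0.37 (adjusted p = 0.00245) and MSC IV below it (-2.10 ± 0.37, adjusted p = 0.00527). MSC II was above by 2.06 ± 0.37 (adjusted p = 0.00978), a call that ended when its array 1 (adjusted p = 0.0622) or its array 2 (adjusted p = 0.0747) was removed. The lower call of MSC III (-1.83, adjusted p = 0.0342) ended without the filter on low values (0.0617) and on removal of MSC I replicate 1 (0.061), MSC II replicate 1 (0.0639) or 2 (0.06), MSC III replicate 1 (0.178) or 2 (0.242), or MSC V replicate 1 (0.0592) or 2 (0.0604).

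Sema7a, which is anchored by a glycolipid and binds plexin C1, read 8.25 and 7.80 log2 in MSC I, 9.11 and 9.07 in MSC II, 6.88 and 7.81 in MSC III, 5.85 and 6.99 in MSC IV, and 9.47 and 7.89 in MSC V. MSC II and MSC V overlapped at the top, and MSC III and MSC IV at the bottom. Its range of 2.67 was called (adjusted p = 0.028), but dropping MSC I replicate 1 (adjusted p = 0.0524), MSC II replicate 1 (0.0631) or 2 (0.0636), MSC IV replicate 1 (0.0815) or the low-value filter (0.058) ended the call. MSC IV was below the others (-1.86 ± 0.45, adjusted p = 0.0184; -1.29 and adjusted p = 0.148 without MSC IV replicate 1). Sema4f reached 6.82 and 7.11 log2 in MSC IV, with a range of 1.73 (adjusted p = 0.0196); the call ended without MSC IV replicate 1 (adjusted p = 0.0547) or 2 (adjusted p = 0.087). MSC IV exceeded the others by 1.40 (adjusted p = 0.009; 1.26 and adjusted p = 0.0982 without MSC IV replicate 2). Sema4b (range 0.96), Sema4c (0.74) and Sema4g (0.73) were not called. Sema4b had an adjusted p of 0.0242 and missed only the minimum difference; its range was 1.15 without MSC I replicate 2 and 1.08 without MSC III replicate 1, where it was called.

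Both neuropilins, the co-receptors of class 3 semaphorins, differed, and MSC IV took opposite ends of the 2 genes. Nrp1, which binds Sema3a and also vascular endothelial growth factor, read 11.78 and 10.93 log2 in MSC I, 7.53 and 8.82 in MSC II, 9.42 and 9.86 in MSC III, 6.33 and 7.36 in MSC IV, and 10.42 and 8.51 in MSC V. Nrp2, the preferred co-receptor of Sema3f, read 9.62 and 9.40 in MSC I, 8.11 and 8.71 in MSC II, 9.81 and 9.68 in MSC III, 11.97 and 11.53 in MSC IV, and 10.58 and 10.78 in MSC V. Both MSC IV arrays were thus the lowest for Nrp1 and the highest for Nrp2, while MSC I was highest for Nrp1 and MSC II lowest for Nrp2.

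MSC IV minus the mean of the others was -2.81 ± 0.55 for Nrp1 (adjusted p = 0.00787) and 2.16 ± 0.18 for Nrp2 (adjusted p = 0.000234). MSC I was above the others in Nrp1 by 2.83 ± 0.55 (adjusted p = 0.00569), and MSC II below them in Nrp2 (-2.01 ± 0.18, adjusted p = 0.000691). The spread of Nrp1 between replicates was wide: without MSC IV replicate 1 its MSC IV difference was -2.30 (adjusted p = 0.0707), and without MSC I replicate 1 its MSC I difference was 2.40 (adjusted p = 0.0651). Its range over the 5 preparations (4.51, adjusted p = 0.0097) remained called without any 1 array. MSC I and MSC III did not differ in Nrp1 beyond the threshold (1.72 ± 0.70, adjusted p = 0.106), nor did MSC I and MSC V (1.89 ± 0.70, adjusted p = 0.0875).

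Among the plexins, Plxnd1 and Plxnb1 were highest in MSC I and Plxnc1 in MSC II. Plxnd1, the receptor of Sema3e, read 10.90 and 10.17 log2 in MSC I, 8.83 and 9.81 in MSC II, 9.61 and 9.55 in MSC III, 8.28 and 7.73 in MSC IV, and 9.27 and 9.64 in MSC V. Like Sema3e it was lowest in MSC IV (-1.72 ± 0.29, adjusted p = 0.00452), but its highest preparation was MSC I (1.44 ± 0.29, adjusted p = 0.00673) and that of Sema3e MSC II. These calls were lost without MSC IV replicate 2 (-1.44, adjusted p = 0.0653) and MSC I replicate 1 (1.08, adjusted p = 0.0785) respectively, and the range of 2.53 (adjusted p = 0.00943) was not.

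Plxnb1, the receptor of Sema4d, read 8.82 and 8.45 log2 in MSC I, 6.61 and 6.72 in MSC II, 7.82 and 7.80 in MSC III, 7.76 and 8.25 in MSC IV, and 7.54 and 7.32 in MSC V. It was lowest in MSC II (-1.30 ± 0.15, adjusted p = 0.00212), apart from all other arrays, and highest in MSC I (1.15 ± 0.15, adjusted p = 0.00109; 0.97 without MSC I replicate 1, under the minimum of 1). Plxnc1, the receptor of Sema7a, read 8.22 and 7.69 log2 in MSC II, 5.04 and 5.53 in MSC I, 5.58 and 5.64 in MSC III, 6.13 and 5.61 in MSC IV, and 5.00 and 5.50 in MSC V. MSC II alone was above the table median, and its difference from the others was 2.45 ± 0.22 (adjusted p = 0.000685); without either MSC II array the gene did not pass the low-value filter.

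Plxna2 (range 1.94, adjusted p = 0.0273) and Plxna3 (1.24, adjusted p = 0.0208) both had their lowest mean in MSC IV. Removing MSC I replicate 1 (adjusted p = 0.0754) or 2 (0.0619), MSC IV replicate 2 (0.0947) or the low-value filter (0.0542) ended the call of Plxna2. Its MSC IV difference was -1.43 ± 0.30 (adjusted p = 0.0105), and -0.93 (adjusted p = 0.12) without MSC IV replicate 2. That of Plxna3 was lost without MSC IV replicate 2 (range 0.95, adjusted p = 0.0736). Plxna1 (range 0.78, adjusted p = 0.0112) was under the minimum difference, and Plxnb2 was not called, with all arrays between 11.08 and 11.71 log2 (range of means 0.39, adjusted p = 0.241).

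**Figure D2:**
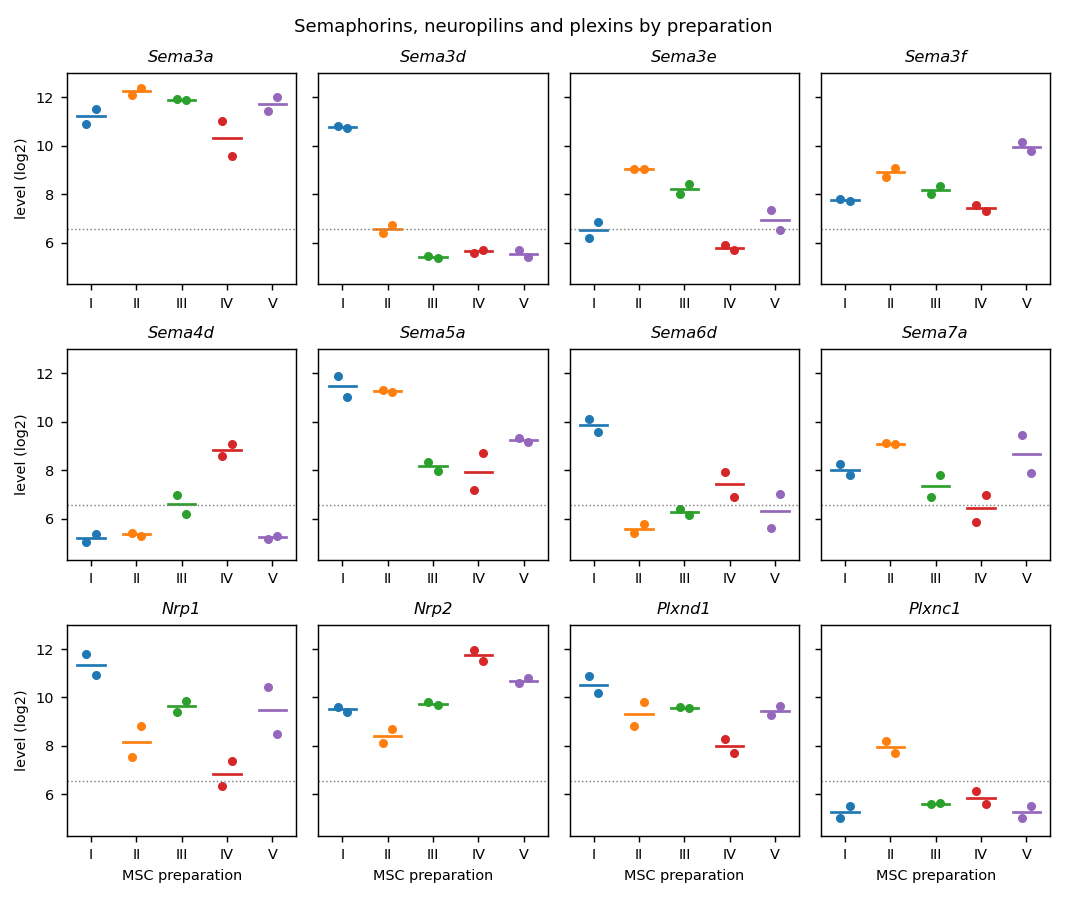
Log2 level (vertical axis) of 12 semaphorin pathway genes in MSC I to V; points are single arrays, bars the mean of 2 arrays, and the dotted line the table median of 6.55. Sema3d and Sema6d are highest in MSC I, Sema4d and Nrp2 in MSC IV, Plxnc1 in MSC II and Sema3f in MSC V.

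Of the ephrins 2 of 6 tested were called, Efna1 and Efnb2. Efna1, a glycolipid-anchored ephrin and the main ligand of Epha2, read 6.30 and 6.03 log2 in MSC I, 7.32 and 7.48 in MSC II, 8.35 and 8.11 in MSC III, 8.49 and 9.15 in MSC IV, and 8.73 and 8.42 in MSC V. MSC I lay below all other arrays (-2.09 ± 0.18, adjusted p = 0.000142), and MSC IV and MSC V overlapped at the top, with MSC III just below them. MSC IV was above the mean of the others by 1.23 ± 0.18 (adjusted p = 0.00269), and by 0.90, under the minimum, without MSC IV replicate 2.

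Efnb2, the transmembrane ephrin-B2, read 7.26 and 7.88 log2 in MSC I, 10.37 and 10.24 in MSC II, 8.77 and 9.38 in MSC III, 6.95 and 7.00 in MSC IV, and 10.03 and 8.88 in MSC V. Its MSC II arrays were the highest and its MSC IV arrays the lowest of all 10, with differences from the others of 2.03 ± 0.30 (adjusted p = 0.00516) and -2.13 ± 0.30 (adjusted p = 0.0022). MSC II and MSC IV were 3.33 log2 apart, with the MSC IV arrays little above the table median of 6.55. MSC I was also below the others (-1.38 ± 0.30, adjusted p = 0.00931; -1.07 and adjusted p = 0.0999 without MSC I replicate 1).

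Efnb1, in contrast, was not called: 10.60 and 10.09 log2 in MSC I, 9.25 and 10.12 in MSC II, 10.65 and 10.48 in MSC III, 10.10 and 10.06 in MSC IV, and 9.93 and 9.78 in MSC V (range 0.88, adjusted p = 0.113). The arrays of MSC II differed most, and without MSC II replicate 2 it was called (range 1.32, adjusted p = 0.0208). Efnb3 was under the table median throughout, at 5.12 and 4.88, 4.94 and 5.01, 5.13 and 4.93, 4.97 and 5.29, and 4.95 and 5.01 log2 in MSC I to V in turn. Efna5 (range 1.21, adjusted p = 0.275), Efna2 (0.83, adjusted p = 0.209) and Efna4 (0.71, adjusted p = 0.296) were not called. Efna3 lies next to Efna1 and Efna4 on chromosome 3. It exceeded the table median on 1 array alone, MSC IV replicate 2 (8.27 log2, against 6.06 on the other MSC IV array), and was not tested.

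Of the Eph receptors, 4 called members were EphA genes, Epha2, Epha3, Epha4 and Epha7, and 1 an EphB gene, Ephb6. Epha2 read 5.90 and 6.54 log2 in MSC I, 8.14 and 7.87 in MSC II, 9.31 and 9.51 in MSC III, 9.75 and 9.25 in MSC IV, and 8.97 and 8.89 in MSC V. As for its ligand Efna1, MSC I was lowest (-2.74 ± 0.19, adjusted p = 4.33e-05), MSC II next and MSC IV highest (1.36 ± 0.19, adjusted p = 0.00217). The means of MSC III and MSC IV were not distinguishable (-0.09 ± 0.24, adjusted p = 0.832). MSC III was above the others by 1.25 ± 0.19 (adjusted p = 0.0126), but not without MSC III replicate 1 (adjusted p = 0.102) or 2 (0.151).

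Epha3 read 10.62 and 9.99 log2 in MSC III, 9.11 and 10.57 in MSC V, 7.79 and 7.41 in MSC I, 6.25 and 5.66 in MSC IV, and 5.63 and 5.78 in MSC II. MSC I lay between the other preparations, above MSC II (1.90 ± 0.46, adjusted p = 0.0159) and MSC IV (1.64 ± 0.46, adjusted p = 0.022) and below MSC III (-2.70 ± 0.46, adjusted p = 0.00552) and MSC V (-2.24 ± 0.46, adjusted p = 0.0118). The first of these calls ended on removal of MSC I replicate 1 (0.0822) or MSC II replicate 1 (0.0686) or 2 (0.0509), the second on removal of MSC I replicate 1 (0.106) or 2 (0.0509) or MSC IV replicate 2 (0.12), and the last on removal of MSC I replicate 2 (0.0693). MSC III and MSC V overlapped (difference 0.46 ± 0.46, adjusted p = 0.581), as did MSC II and MSC IV (-0.25 ± 0.46, adjusted p = 0.74). Against the mean of the others, MSC III was higher by 3.03 ± 0.36 (adjusted p = 0.00503; 2.71 and adjusted p = 0.0721 without MSC III replicate 1) and MSC V by 2.45 ± 0.36 (adjusted p = 0.00761). MSC II (-2.72, adjusted p = 0.00331) and MSC IV (-2.40, adjusted p = 0.00277) were lower.

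Epha4, a receptor that binds both ephrin classes, read 7.51 and 8.10 log2 in MSC I, 6.79 and 6.53 in MSC II, 8.05 and 8.38 in MSC III, 6.07 and 5.31 in MSC IV, and 6.80 and 6.89 in MSC V. MSC I and MSC III overlapped at the top and MSC IV lay below all others (-1.69 ± 0.23, adjusted p = 0.00171). The higher level of MSC III (1.47 ± 0.23, adjusted p = 0.0126) was lost without MSC III replicate 1 (adjusted p = 0.0846) or 2 (0.155).

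Epha7 exceeded the table median on the arrays of MSC I and MSC V and on none of the other 6. It read 9.44 and 9.36 log2 in MSC I, 7.64 and 8.30 in MSC V, 5.30 and 5.05 in MSC II, 5.30 and 5.12 in MSC III, and 5.32 and 5.16 in MSC IV. MSC I exceeded MSC V by 1.43 ± 0.22 (adjusted p = 0.00326), and MSC I and MSC V exceeded the mean of their other four by 3.50 ± 0.17 (adjusted p = 5.98e-06) and 1.71 ± 0.17 (adjusted p = 0.00169). The kinase-inactive receptor Ephb6 was lowest in MSC I (6.34 ± 0.42, SD, n = 2) against means of 7.51 to 8.18 elsewhere. Its MSC I difference was -1.57 ± 0.33 (adjusted p = 0.0076; adjusted p = 0.0722 without MSC I replicate 2). The call of its range of 1.84 (adjusted p = 0.0319) ended on removal of MSC I replicate 1 (adjusted p = 0.0677) or 2 (0.159), MSC III replicate 1 (0.0543) or 2 (0.0576), MSC V replicate 2 (0.0535) or the low-value filter (0.0631). Ephb3 (range 0.62, adjusted p = 0.396) and Ephb4, the receptor of ephrin-B2 (0.52, adjusted p = 0.305), were not called, against the range of 3.33 of Efnb2. Ephb2 had no entry in the probe annotation used and was not analysed here.

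Of the Slit and Robo genes, the receptor Robo1 was high in MSC I and the ligand Slit2 in MSC V. Robo1 read 10.16 and 9.77 log2 in MSC I, 5.56 and 5.16 in MSC II, 6.61 and 7.16 in MSC III, 5.09 and 5.57 in MSC IV, and 6.15 and 5.90 in MSC V. MSC I was 4.07 ± 0.21 above the mean of the others (adjusted p = 7.52e-06), with MSC III next, the only other preparation above the table median. Robo2, adjacent to Robo1 on chromosome 16 with no other protein-coding gene between them, read 5.28 and 5.16, 4.97 and 5.04, 5.16 and 5.06, 5.00 and 5.18, and 5.27 and 5.23 log2 in MSC I to V in turn. Robo3 read 4.70 and 4.68, 4.83 and 4.72, 4.64 and 4.77, 4.73 and 4.76, and 4.76 and 4.75, and the endothelial Robo4 read 4.91 and 4.90, 4.87 and 4.88, 4.96 and 4.86, 4.91 and 5.04, and 4.98 and 4.95. None of these 3 genes reached the table median on any array, and none was tested.

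Slit2 read 8.42 and 9.29 log2 in MSC I, 8.38 and 6.52 in MSC II, 7.66 and 7.91 in MSC III, 7.31 and 8.07 in MSC IV, and 10.62 and 10.59 in MSC V. MSC V lay above all other arrays (2.65 ± 0.45, adjusted p = 0.0124), a call lost without MSC V replicate 1 (adjusted p = 0.0942) or 2 (0.0749), and the range of 3.15 (adjusted p = 0.0125) was lost without MSC V replicate 1 (adjusted p = 0.0508). In MSC V the macrophage-associated genes Cd68 (mean 8.54 log2, against 6.60 to 7.41 elsewhere) and Cd14 (6.95, against 5.50 to 6.56) were also highest, and the mean of the 10 blood markers was 5.75 against 5.34 to 5.49. Their part in the levels of Slit2 and Sema3f was not tested. Ptprc, Adgre1, Itgam and Spi1 were under 5.3 log2 on every array.

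Slit3 read 6.63 and 5.40 log2 in MSC I, 6.38 and 8.22 in MSC II, 7.41 and 7.25 in MSC III, 8.39 and 8.02 in MSC IV, and 7.53 and 7.46 in MSC V. The MSC II arrays lay far apart and spanned most of the other preparations, and the range of 2.19 was not called (adjusted p = 0.0899); without MSC II replicate 1 or 2 it was (adjusted p = 0.0184 and 0.0196). MSC I was below the others (-1.57 ± 0.46, adjusted p = 0.0287), but not without MSC I replicate 2 (-0.95, adjusted p = 0.242), MSC III replicate 1 (-1.54, adjusted p = 0.0518) or the low-value filter (adjusted p = 0.0567). Slit1 was not tested, at 5.06 and 4.98, 5.08 and 5.00, 5.10 and 5.09, 5.09 and 5.14, and 5.04 and 5.17 log2 in MSC I to V.

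**Figure D3:**
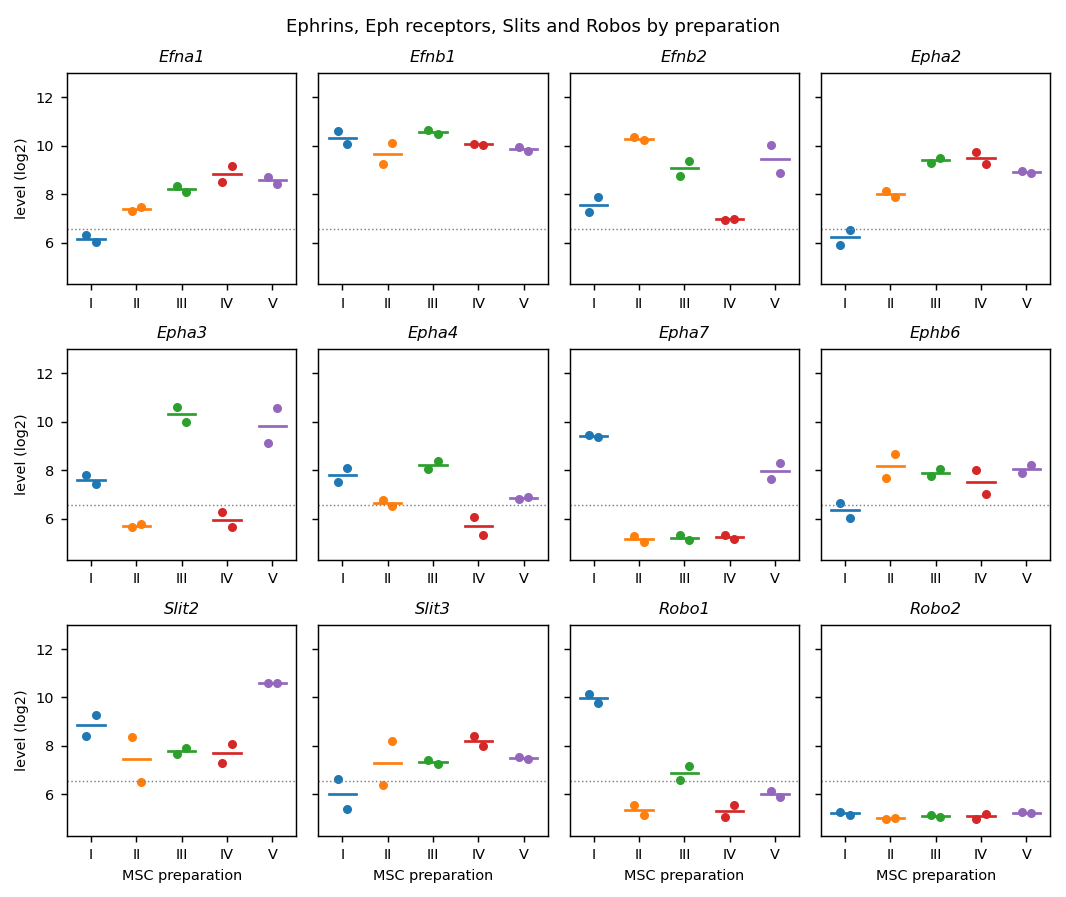
Log2 level (vertical axis) of 12 ephrin, Eph, Slit and Robo genes in MSC I to V; points are single arrays, bars the mean of 2 arrays, and the dotted line the table median of 6.55. Epha7 and Robo1 are highest in MSC I, Efna1 and Epha2 lowest there, Efnb2 lowest in MSC IV and Slit2 highest in MSC V.

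Seen by preparation, most guidance genes that set MSC IV apart from the other four were lower. Among all tested genes, too, more were called lower (845) than higher (361) there. In MSC IV 5 members were higher (Efna1, Epha2, Nrp2, Sema4d and Sema4f; 12.8% of 39, against 3.29% of all tested genes), or 3 without MSC IV replicate 2, and 14 were lower (35.9%, against 7.70%). The lower members were the ligands Efnb2, Sema3a, Sema3d, Sema3e, Sema3f, Sema5a and Sema7a and the receptors Epha3, Epha4, Epha7, Nrp1, Plxna2, Plxnd1 and Robo1. Of these, Sema3a, Plxna2 and Plxnd1 lost their call without MSC IV replicate 2, and Nrp1 and Sema7a without MSC IV replicate 1. The calls of Sema3d, Epha3, Epha7 and Robo1 came from levels under the table median that MSC IV shared with other preparations (MSC II alone for Epha3). Of the higher members, Sema4d and Sema4f passed the low-value filter only through MSC IV, which favoured their place there. Genes of this kind were not removed from either share. Stromal markers moved with MSC IV too, and their part in these counts was not tested: Cxcl12 had a mean of 9.38 log2 there against 12.43 to 12.63 elsewhere, Vcam1 6.75 against 9.94 to 10.94, and Pdgfra 7.11 against 8.49 to 11.46, while Eng (9.60 against 5.58 to 5.78) and Nt5e (11.21 against 5.92 to 8.01) were higher. The mean of the 11 stromal markers was 9.66 in MSC IV, within the 9.52 to 9.76 of the other preparations.

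In MSC I 8 members were higher (20.5%, against 7.73% of all tested genes), namely Epha7, Nrp1, Plxnb1, Plxnd1, Robo1, Sema3d, Sema5a and Sema6d. Of these, Sema3d passed the low-value filter only through MSC I, which favoured its place among them. There 6 were lower (15.4%, against 5.22%), namely Efna1, Efnb2, Epha2, Ephb6, Sema4d and Slit3. Sema4d was under the table median in MSC I, a level it shared with MSC II and MSC V.

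In MSC II the higher members were Efnb2, Plxnc1, Sema3e and Sema5a (4, 10.3% against 2.45% of all tested genes; 2 without MSC II replicate 1 or replicate 2), and 7 were lower (17.9%, against 2.69%). In MSC III 4 were higher, Epha2, Epha3, Epha4 and Sema3e (10.3%, against 1.31%), but 0 without MSC III replicate 1 and 1 without replicate 2; 3 were lower, Epha7, Sema3d and Sema5a (7.69%, against 0.957%). In MSC V 4 were higher, Epha3, Epha7, Sema3f and Slit2 (10.3%, against 2.11%), and 2 lower, Sema3d and Sema4d (5.13%, against 1.44%; 1 without MSC V replicate 1 or replicate 2). Plxnc1 passed the low-value filter only through MSC II, which favoured its place among the higher members there. These comparisons share their arrays, so that a gene high in 1 preparation is drawn lower in each of the others. Several lower calls came from levels under the table median that other preparations shared. They were Sema3d and Sema4d in MSC V, Sema3d and Epha7 in MSC III, and Epha3, Epha7, Robo1, Sema4d and Sema6d in MSC II. Over the 39 members the median difference was -0.40 log2 in MSC IV and -0.32 in MSC II, against 0.01 in both over all tested genes.

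MSC I and MSC IV differed in 17 members (43.6%, against 20.3% of all tested genes) and MSC I and MSC II also in 17 (43.6%, against 14.9%). MSC I and MSC V differed in 14 (against 10.5% of all tested genes) and MSC I and MSC III in 12 (against 11.3%). Each of these MSC I counts moved up or down when single arrays were left out. MSC II and MSC IV differed in 16 (against 9.06%), or 9 without MSC II replicate 2. MSC IV and MSC V differed in 14 (against 10.9%), or 9 without either MSC IV array and 7 without MSC V replicate 1. MSC III and MSC IV differed in 12 (against 7.99%), or 5 without MSC III replicate 2 and 6 without MSC IV replicate 2.

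MSC II and MSC V differed in 10 (against 5.56%), or 6 without either MSC II array or MSC V replicate 1. MSC II and MSC III also differed in 10 (against 3.02%), or 2 without MSC II replicate 1 and 3 without any 1 of the other 3 arrays of that pair. MSC III and MSC V had the fewest, 5 members (12.8%, against 2.07%), Epha4, Epha7, Sema3f, Sema4d and Slit2. That count was 2 without MSC III replicate 1, MSC V replicate 1 or MSC V replicate 2 and 3 without any 1 of the other 7 arrays.

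**Figure D4:**
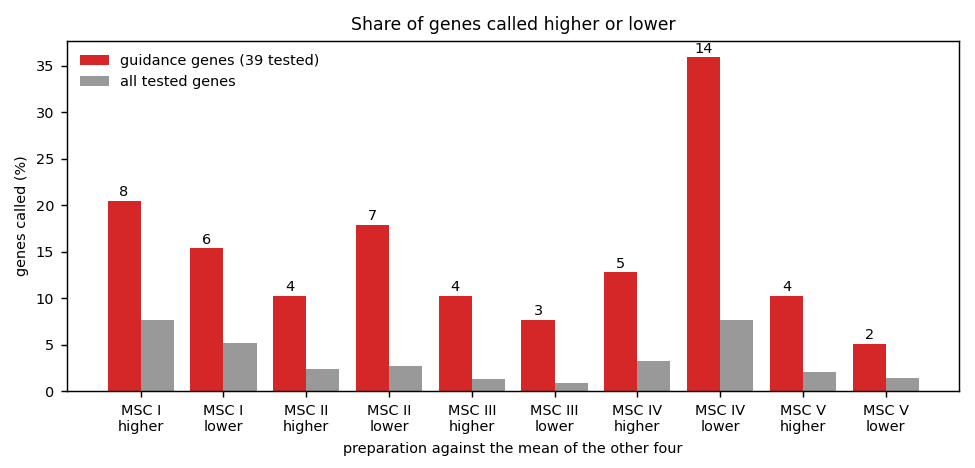
Percent of genes called higher or lower in each preparation against the mean of the other four, for the 39 tested guidance genes (red, with the number of genes above the bar) and for all tested genes (grey). The tallest bar is the 14 members lower in MSC IV, 35.9% against 7.70%.

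Other genes of the guidance pathways were taken from a list of 61, of which 40 were tested: netrins and their receptors, repulsive guidance molecules, FLRT proteins and intracellular mediators. Of these 16 (40.0%, against 29.1% of all tested genes) differed among the preparations, and the count was lower without some single arrays. Dpysl3, a collapsin response mediator downstream of Sema3a, had the widest range (6.16 log2, adjusted p = 1.37e-05), at 5.63 and 5.75 log2 in MSC I against 10.04 to 12.16 on all other arrays. The adhesion and repulsion protein Flrt2 (range 3.79, adjusted p = 0.00288) and the kinase Fyn (3.52, adjusted p = 0.00017) were also lowest in MSC I. Gpc1, a heparan sulfate proteoglycan that binds Slit, was highest in MSC IV at 11.23 and 11.46 log2 and lowest in MSC I at 8.31 and 7.56, where it overlapped MSC II (8.28 and 7.85; range 3.41, adjusted p = 0.000665).

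Srgap1, a GTPase-activating protein that binds Robo1, was lowest in MSC V (5.90 and 5.98 log2) and highest in MSC IV (9.30 and 9.22; range 3.32, adjusted p = 5.85e-05). MSC V thus had the highest mean of Slit2 and the lowest of Srgap1, and a relation between these genes was not tested. Robo1 was under the table median in MSC V (6.15 and 5.90 log2). The netrin receptor Dscam was highest in MSC II (7.87 and 9.50 log2; range 3.45, adjusted p = 0.0221), a call that ended when MSC I replicate 1 (adjusted p = 0.0511), MSC II replicate 2 (0.0896), MSC IV replicate 1 (0.05) or MSC IV replicate 2 (0.051) was left out. Dscam passed the low-value filter only through MSC II, as its only other array above the table median was MSC V replicate 1 (7.44 log2). This favoured a difference in Dscam but did not force a call. The shared effector GTPases Rhoa, Rac1 and Cdc42, picked out after their values were seen, had ranges of 0.13, 0.15 and 0.15 log2 (adjusted p = 0.687, 0.691 and 0.72).

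The 20 members that were not tested were, besides Efna3, Efnb3, Robo2, Robo3, Robo4, Slit1 and Sema3g, the semaphorins Sema4a, Sema5b, Sema6a, Sema6b and Sema6c, the plexins Plxna4 and Plxnb3, and the receptors Epha1, Epha5, Epha6, Epha8, Epha10 and Ephb1. Of these 20, 17 were under the table median on every array and 3 above it on 1 array. Sema6a was the nearest to being tested, at 6.27 and 6.67 log2 in MSC IV against 5.07 to 5.48 on all other arrays. The 2 probe sets listed for Sema6b held the same values on every array.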

How the data were processed

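Gene expression was measured in 5 preparations with 2 single-colour arrays each, grouped by sample title. The deposited values were log2 expression levels of 35399 probe sets, made by the authors with RMA and Partek per the submitters' processing notes (versions not stated); RMA corrects background, equalises array distributions and compresses low values. Per the platform annotation, 21789 probe sets had 1 gene symbol, 1621 several and 11989 none. Only the first were used, the one with the highest mean per gene; 4 members had more than 1 probe set. Genes with at least 2 arrays above the table median (6.55 log2) were tested, 10971 in all. Means of the 5 preparations were fitted over all 10 arrays in limma 3.58.1 (lmFit, then eBayes; R 4.3.3) and tested by the moderated F statistic, by contrasts of each preparation with the others' unweighted mean, and by pairs. Contrasts were two-sided, with Benjamini-Hochberg adjustment across the tested genes; calls required 1 log2 or more at an adjusted p under 0.05. Errors after a difference are SE from the fit. The fit was tested on simulated data. Tables and figures were made in Python 3.11.15. The members and gene lists were chosen with earlier results of these data known. Every member could be named; values on every array were given for the 20 called members with the widest range and for all Slit, Robo, neuropilin and ephrin-B genes, and of the other pathway genes the 6 widest called were named. Alternatives were no low-value filter, a filter at the 75th percentile (9.22 log2), averaging probe sets per gene, centring arrays on their medians, quantile normalising again, a trended robust eBayes, blocking on replicate number, and leaving out each array in turn, the lone remaining array being taken to vary as the rest do. Chromosomes, gene order and upstream sequences are from RefSeq (GRCm38.p6); 52 of 59 members had an upstream entry.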

Additional observations from a re-analysis of the deposited data

How the results depend on the processing

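Under the alternatives no direction of a called member turned. With the filter at the 75th percentile, which left 21 members and 28 other pathway genes tested, the counts were lower because fewer genes were tested: 15 members differed among the 5 preparations, 2 were lower in MSC I, 2 higher in MSC II, 2 higher in MSC III, 2 higher in MSC IV and 1 lower in MSC V, and 9 other pathway genes differed. Members differing in pairs were then 11 (MSC I and II), 10 (I and IV), 6 (II and III), 9 (II and IV), 7 (III and IV), 3 (III and V) and 9 (IV and V). Without the filter, 2 members differed between MSC III and V and 9 between MSC IV and V; with the mean of probe sets 1 member was lower in MSC V. Leaving out 1 array gave 22 to 25 members differing among the preparations and 11 to 16 other pathway genes. The members higher and lower against the other four were then 7 to 10 and 6 to 7 in MSC I, 2 to 5 and 5 to 7 in MSC II, 0 to 4 and 2 to 3 in MSC III, 3 to 6 and 11 to 15 in MSC IV, and 3 to 5 and 1 to 2 in MSC V. In pairs they were 14 to 18 (MSC I and II), 8 to 13 (I and III), 15 to 19 (I and IV), 10 to 17 (I and V), 2 to 10 (II and III), 9 to 16 (II and IV), 6 to 10 (II and V), 5 to 13 (III and IV), 2 to 3 (III and V) and 7 to 14 (IV and V). Replicate numbers did not pair the arrays across all preparations. Same-numbered deviations correlated at r = -0.55 to 0.20 over 10 pairs of preparations, and only MSC II and III gave a positive value. At the negative values, such as -0.55 for MSC I and II and -0.51 for MSC III and V, unlike-numbered arrays deviated alike. The source of this was not tested. With the replicate number as a block, members differing were 6 between MSC II and III, 7 between MSC III and IV, 2 between MSC III and V and 7 between MSC IV and V, and the calls of Sema3a, Sema3b, Sema7a, Plxna2 and Ephb6 over all preparations were lost. Except where construction shows it, the cause of these changes was not tested. The number of arrays and the compression of low values limit the precision.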
